A study of Rattus norvegicus with 30 samples.

Results

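The genes described here are those of the proteasome, chosen as every gene whose symbol starts with Psm, a letter from a to g and a digit, on a probe set that the array's annotation gives exactly 1 symbol. The rule found 48 genes on 49 probe sets (Psmb6 has 2) among 18166 genes measured under 1 symbol. Of the 48, 43 encode subunits, activators, an inhibitor or assembly chaperones of the proteasome. The other 5 are the pseudogenes Psma6-ps1 and Psmd1-ps1, the Psmb3-like gene Psmb3l2, and Psmc3ip and Psme3ip1, which are named for a protein they bind. Psma3 and Psme3 lie only on probe sets shared with other symbols and were not used. Psma8, Psmd10 and Psmg3 were not analysed here.

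Liver RNA of 30 wild-type Wistar rats was measured with 1 Affymetrix Rat Gene 2.0 ST array for each animal. The rats had been assigned at random to 5 groups of 6. In the PH30, PH70 and PH90 groups 30%, 70% or 90% of the liver was removed, the fourth group had a sham operation, and tissue was collected 24 h later. The fifth group was unoperated. Rats are named by their numbers, which are unique and pair no animals, and the p-values rest on the spread between rats. The unoperated rats carry the highest numbers, so any drift with the order of the rats and the lack of an operation cannot be told apart.

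The proteasome is the main protease of the cytosol and nucleus and degrades proteins tagged with ubiquitin. Its barrel-shaped core particle is built of rings of alpha (Psma) and beta (Psmb) subunits, and only the beta subunits Psmb5, Psmb6 and Psmb7 cut peptide bonds. A regulatory particle of ATPases (Psmc) and non-ATPase subunits (Psmd) caps the core, binds ubiquitinated proteins, unfolds them and feeds them in. Interferon induces Psmb8, Psmb9 and Psmb10, which replace Psmb5, Psmb6 and Psmb7 in the immunoproteasome and shift the peptides made towards those presented on MHC class I, and also the activator PA28 (Psme1 and Psme2). After partial hepatectomy the remaining hepatocytes enter the cell cycle, in which the proteasome degrades cyclins and their inhibitors.

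The deposited values are log2 values from which each probe set's median over the 30 arrays had been subtracted. A value of 0 is therefore a gene's median over all rats, differences between rats are kept, and the level of a gene is unknown. The liver label therefore could not be checked against marker levels. Array medians lay between -0.009 and 0.022. A gene was called higher or lower at an adjusted p below 0.05 in limma's moderated test (Benjamini-Hochberg over all 18166 genes, 6 rats per group), and a fold is 2 to the power of the log2 difference. In pieces of whole liver, fewer cells of a type and less RNA per cell cannot be told apart.

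Among the 30 constitutive subunits measured (13 of the core particle and 17 of the regulatory particle), 2 rats stood apart from their groups. In the PH30 group, rat 95 had a mean over the 30 genes of 0.14, while the other 5 rats ranged from -0.24 to -0.14. In the PH70 group, rat 139 had a mean of -0.03, while its 5 companions ranged from 0.15 to 0.23. Rat 95 had the lowest macrophage marker mean of its group (-0.35) and rat 139 the highest of its group (0.38), and the part of these in the result was not tested. Where leaving out both rats ends a call or moves a count by over 1.5 times, the value without them is given too. Both rats stood apart in these same genes, so for the constitutive subunits such values are a description and no support for a difference. They also stood apart in other genes, each towards the other's group. The endothelial marker mean of rat 95 was -0.17, against 0.21 to 0.41 in other PH30 rats. That of rat 139 was 0.13, against -0.16 to 0.07 in other PH70 rats. Without both, 8.87% of genes passed as higher in PH70 than in PH30, against 1.76% with all rats. For lower genes the shares were 4.45% and 0.512%. Whether these rats' group labels are right was not tested, a limit on every PH30 and PH70 result.

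After removal of 90% of the liver, RNA of every constitutive subunit measured was higher. All 30 were higher in PH90 than in sham livers, where 19.9% of all genes were called higher, and none was lower even at an unadjusted p below 0.05. Their median log2 difference was 0.82 (range 0.38 to 1.17), against 0 over all genes. The median was 0.76 in the core particle and 0.87 in the regulatory particle, and the difference between them was not tested. The per-rat mean of the 30 genes ran from 0.56 to 0.69 (median 0.64) in PH90 and from -0.28 to -0.07 (median -0.18) in sham, so the groups were far apart. Taken gene by gene, 28 of the 30 had every PH90 rat above every sham rat, as did 12.1% of all genes. Psmd1 and Psmd11 were the exceptions.

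**Figure D1:**
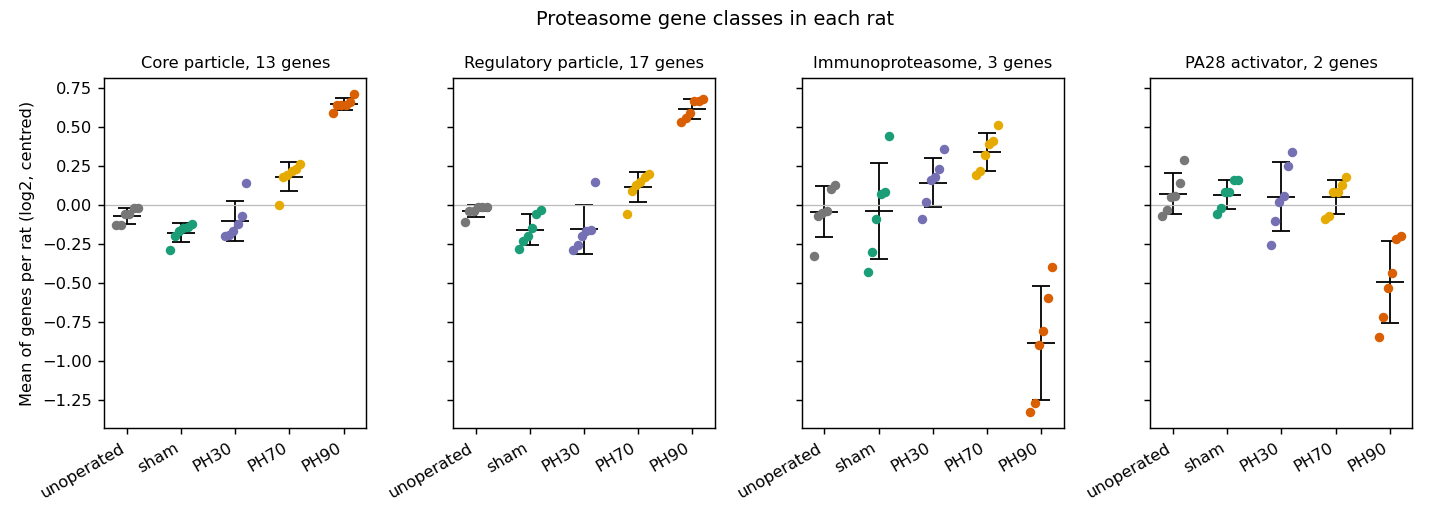
Mean of each proteasome class in each rat (log2, centred on each gene's median over the 30 arrays), with 1 point per rat and the 5 treatment groups on the x axis. The constitutive particles rise from PH70 to PH90 while the immunoproteasome mean of PH90 rats lies between -1.33 and -0.4.

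In the core particle the largest difference was that of Psmb4, a structural beta subunit. Its values ran from -0.38 to -0.06 (median -0.23) in sham and from 0.77 to 1.13 (median 0.98) in PH90, without overlap. The difference was 1.17 (SE 0.09, 2.24-fold higher, limma adjusted p = 3.8e-11), and all 6 PH90 rats lay above the sham mean. Psma1, an alpha ring subunit, went from -0.15 to 0.09 (median -0.11) in sham to 0.74 to 1.03 (median 0.9) in PH90. It was 2-fold higher (log2 difference 1, SE 0.08, limma adjusted p = 1.2e-11). The other 5 alpha subunits measured were higher by 0.73 (Psma7) to 0.96 (Psma5). Psmb3, also a structural beta subunit, had the smallest core difference, 0.56 (SE 0.18, limma adjusted p = 0.015). Its call rested on PH90 rat 106, at 1.13 against 0.29 to 0.59 in the other PH90 rats, and was lost without that rat.

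The 3 constitutive catalytic subunits moved almost alike. Psmb5, which carries the chymotrypsin-like activity, ran from -0.44 to -0.09 (median -0.17) in sham and from 0.34 to 0.79 (median 0.5) in PH90, a difference of 0.73 (SE 0.09, 1.66-fold, limma adjusted p = 1.2e-07). Psmb6, with the caspase-like activity, ran from -0.41 to -0.01 in sham and from 0.43 to 0.66 in PH90, a difference of 0.76 (SE 0.07, 1.69-fold, limma adjusted p = 1.6e-10). Psmb7, with the trypsin-like activity, ran from -0.34 to 0.04 in sham and from 0.51 to 0.66 in PH90, a difference of 0.73 (SE 0.07, 1.66-fold, limma adjusted p = 3.2e-09). None of the 3 overlapped between the groups.

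In the regulatory particle the ATPase Psmc4 and the lid subunit Psmd13 changed most. Psmc4 ran from -0.49 to -0.13 (median -0.23) in sham and from 0.67 to 1.09 (median 0.89) in PH90, 1.17 higher (SE 0.1, 2.24-fold, limma adjusted p = 6.3e-11). Psmd13 ran from -0.38 to 0.03 in sham and from 0.72 to 1.14 in PH90, 1.16 higher (SE 0.1, 2.24-fold, limma adjusted p = 5.5e-11). Both were separated in every rat. Psmd14, the deubiquitinase of the lid that removes ubiquitin chains as substrates enter, was 1.06 higher (SE 0.13, 2.09-fold, limma adjusted p = 8.3e-08). The scaffold Psmd2 at the base was 0.9 higher and the lid subunit Psmd3 1.03 higher. The smallest differences were those of Psmd11 (0.38, SE 0.07, 1.3-fold), Psmd1 (0.4, SE 0.12), Psmd7 (0.4, SE 0.08) and Psmc6 (0.5, SE 0.08). All 4 were still called, with limma adjusted p of at most 0.0088, the value of Psmd1. Psmd4, a ubiquitin receptor of the regulatory particle, was 0.51 higher (SE 0.05).

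**Figure D2:**
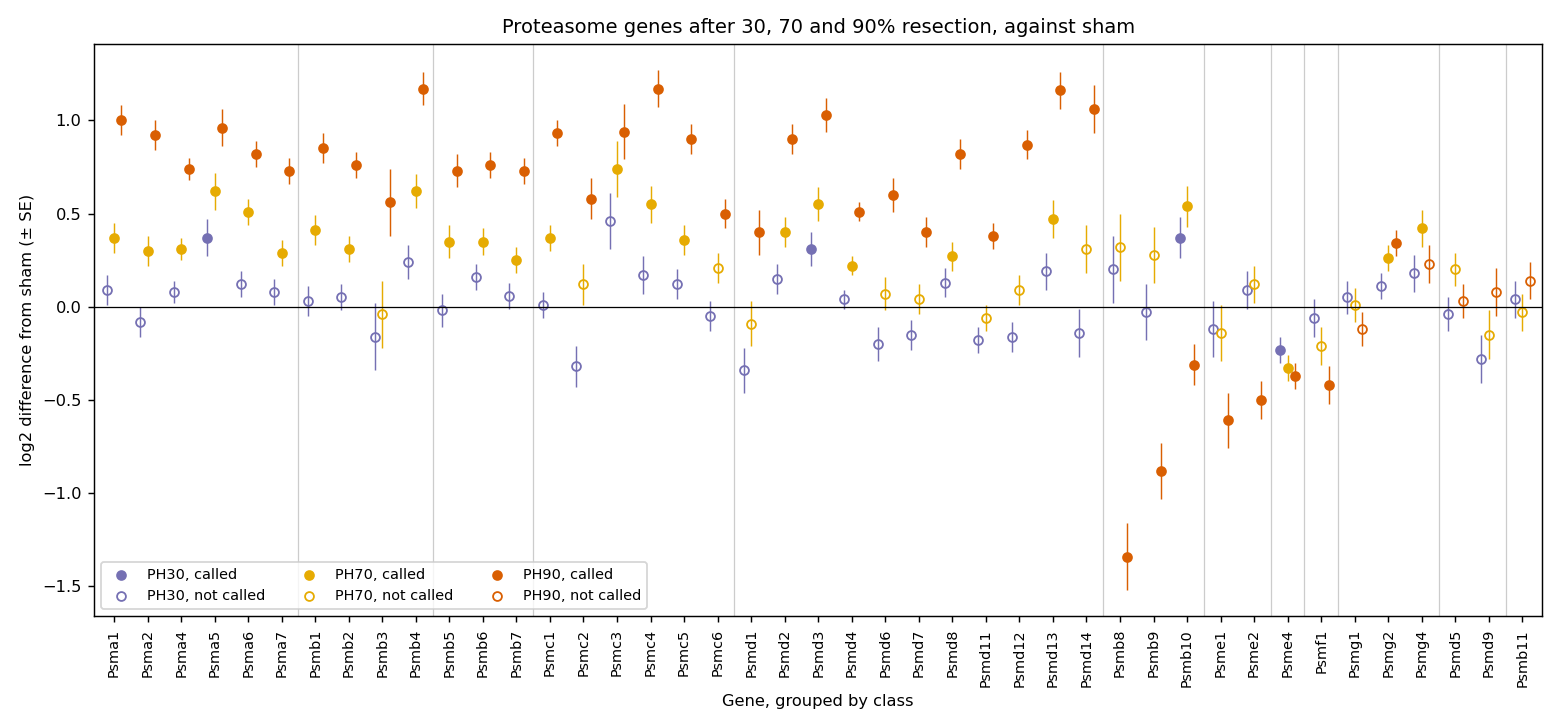
Difference from sham on the log2 scale (y axis, bars are 1 SE) of each proteasome gene (x axis, grouped by class) after 30%, 70% and 90% resection, 6 rats per group. The 30 constitutive subunits lie between 0.38 and 1.17 after 90% resection, and Psmb8 and Psmb9 lie at -1.34 and -0.88.

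The immunoproteasome subunits moved the other way in PH90. All 3 catalytic subunits and both PA28 subunits were lower than in sham, where 14.7% of all genes were called lower. Psmb8, the counterpart of Psmb5, ran from -0.66 to 0.43 (median -0.06) in sham and from -2.03 to -0.81 (median -1.45) in PH90, a log2 difference of -1.34 (SE 0.18, 2.54-fold lower, limma adjusted p = 4.4e-07). Psmb9, the counterpart of Psmb6, ran from -0.33 to 0.66 (median 0.05) in sham and from -1.27 to -0.39 (median -0.77) in PH90, 1.84-fold lower (SE 0.15 on the log2 scale, limma adjusted p = 2.0e-05). The groups did not overlap for either gene, and with Psme2 this held for 3 of the 5 immunoproteasome and PA28 genes, where every PH90 rat lay below every sham rat in 8.48% of all genes. Within PH90, rat 43 had the highest value of each of the 3 immunoproteasome genes.

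Psmb10, the counterpart of Psmb7, changed less and overlapped, at -0.32 to 0.23 (median -0.09) in sham and -0.77 to 0.01 (median -0.35) in PH90. Its log2 difference was -0.31 (SE 0.11, 1.24-fold lower, limma adjusted p = 0.025). The call was lost without PH90 rat 61 or 106, without sham rat 45 or 112, in a fit of the PH90 and sham arrays alone, and against unoperated rats (-0.17, limma adjusted p = 0.25). Psme1 (PA28 alpha) was 1.53-fold lower (log2 difference -0.61, SE 0.15, limma adjusted p = 0.0013), with some overlap, and Psme2 (PA28 beta) was 1.42-fold lower (-0.5, SE 0.1, limma adjusted p = 1.3e-04), with none.

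Each immunoproteasome gene was then set against the subunit it replaces within the same array, as the difference of their centred values. Psmb8 minus Psmb5 was 0.1 ± 0.42 (SD, n = 6) in sham and -1.98 ± 0.39 in PH90. Psmb9 minus Psmb6 was 0.27 ± 0.43 in sham and -1.37 ± 0.33 in PH90. Psmb10 minus Psmb7 was 0.06 ± 0.33 in sham and -0.98 ± 0.34 in PH90. The 3 values were 4.22-fold, 3.12-fold and 2.05-fold lower in PH90, each with every PH90 rat below every sham rat. They are given as a description with no test, since they combine opposite moves already shown for the single genes. For Psmb8 with Psmb5 and Psmb9 with Psmb6 the separation follows from that of the single genes, while Psmb10 alone overlapped between the groups. Against PH70, the differences in PH90 were -2.05, -1.57 and -1.33. Against sham, the differences were 0.23, -0.19 and 0.3 in PH30 and -0.03, -0.07 and 0.29 in PH70, in the same order of pairs, and the values of the groups overlapped.

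**Figure D3:**
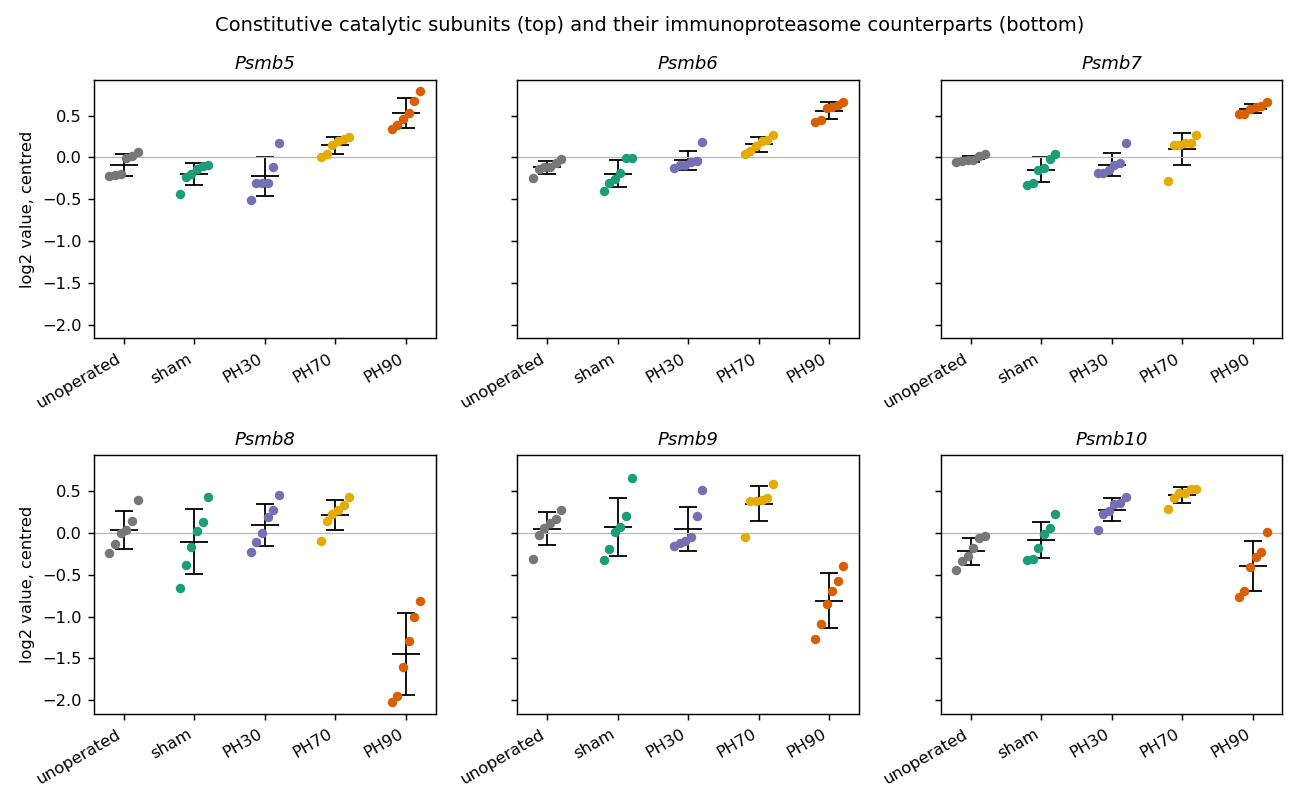
Centred log2 values (y axis) of Psmb5, Psmb6 and Psmb7 in the upper row and of Psmb8, Psmb9 and Psmb10 in the lower row, 1 point per rat, by treatment group on the x axis. PH90 rats lie highest for the upper row, between 0.34 and 0.79 for Psmb5, and lowest for Psmb8, between -2.03 and -0.81.

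Stretches of promoter are shown for members of both sets, since these moved in opposite directions. They come from RefSeq's rat assembly GRCr8, which gave a window of 250 bases before to 50 after the first listed start for 40 of the 48 genes and 27457 genes in all. The windows were searched on both strands for TGACNNNGC (an antioxidant response element, a binding sequence of Nfe2l1 and Nfe2l2), CCAAT (the CCAAT box), the interferon-stimulated response element (GAAA, any 2 bases, GAAA) and TTCNNNGAA (a gamma-activated site). TGACNNNGC was found in 5 of the 26 constitutive subunits with a window (19.2%; Psmb2, Psmb5, Psmb6, Psmd1 and Psmd3), in 0 of the 5 immunoproteasome and PA28 genes and in 12.2% of all windows. CCAAT was found in 13 of the 26 (50%), in 2 of the 5 (40%; Psmb8 and Psmb9) and in 37.7% of all windows. In capitals are TGACNNNGC in the first 3 sequences and CCAAT in the last 2, with the coordinates Psmb5 at chr15:32047391-32047479 on the minus strand, Psmb6 at chr10:55737824-55737887 on the plus strand, Psmb2 at chr5:144254950-144255038 on the plus strand, Psma1 at chr1:177887936-177888020 on the minus strand and Psmc1 at chr6:125122295-125122379 on the plus strand. In Psmb2 the T of TGAC is also the last base of a CCAAT match.
Psmb5: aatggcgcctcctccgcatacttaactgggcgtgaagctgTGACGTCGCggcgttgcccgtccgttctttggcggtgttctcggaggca
Psmb6: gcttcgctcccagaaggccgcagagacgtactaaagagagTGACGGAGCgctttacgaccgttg
Psmb2: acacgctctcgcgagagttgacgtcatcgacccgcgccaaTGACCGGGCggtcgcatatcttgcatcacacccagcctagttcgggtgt
Psma1: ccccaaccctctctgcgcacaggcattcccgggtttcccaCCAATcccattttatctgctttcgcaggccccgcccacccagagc
Psmc1: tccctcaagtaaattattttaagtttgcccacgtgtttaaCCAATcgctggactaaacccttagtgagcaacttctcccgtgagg

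The interferon-stimulated response element was found in 3 of the 5 immunoproteasome and PA28 genes (60%; Psmb8, Psmb10 and Psme2), in 3 of the 26 constitutive subunits (11.5%; Psma4, Psmb3 and Psmd7) and in 3.77% of all windows. TTCNNNGAA was found in Psmb8 alone of the 5 (20%), in 3 of the 26 constitutive subunits (11.5%) and in 8.68% of all windows. Psmb10 holds 2 matches of the interferon-stimulated element, and Psme2 holds 1. The capitals mark that element in Psmb10 and Psme2 and TTCNNNGAA in Psmb8, with the coordinates Psmb10 at chr19:50743293-50743405 on the minus strand, Psme2 at chr15:33052755-33052844 on the minus strand and Psmb8 at chr20:4657228-4657281 on the minus strand. A match is a run of letters and no measure of binding, which was not tested here.
Psmb10: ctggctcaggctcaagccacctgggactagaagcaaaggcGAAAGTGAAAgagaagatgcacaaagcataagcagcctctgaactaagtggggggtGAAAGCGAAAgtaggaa
Psme2: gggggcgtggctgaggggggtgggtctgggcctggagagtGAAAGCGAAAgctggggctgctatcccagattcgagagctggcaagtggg
Psmb8: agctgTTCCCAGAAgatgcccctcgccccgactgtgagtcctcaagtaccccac

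Of the remaining members, the activator Psme4 (PA200) and the inhibitor Psmf1 (PI31) were lower in PH90. Psme4 ran from 0 to 0.28 (median 0.23) in sham and was 1.29-fold lower in PH90 (log2 difference -0.37, SE 0.07, limma adjusted p = 5.4e-05). Psmf1 ran from -0.01 to 0.42 in sham and from -0.39 to -0.13 in PH90, 1.33-fold lower (-0.42, SE 0.1, limma adjusted p = 0.0014), and was not called against unoperated rats (-0.24). Of the assembly chaperones, Psmg2, which helps build the alpha ring, was 0.34 higher (SE 0.07, limma adjusted p = 1.3e-04). Psmg4 (0.23), Psmg1 (-0.12), and the regulatory particle chaperones Psmd5 (0.03) and Psmd9 (0.08) did not pass the test, nor did the thymus subunit Psmb11 (0.14). Among the genes that are no subunits, Psme3ip1 was 0.2 higher (SE 0.07, limma adjusted p = 0.028, lost in 6 of 12 fits with 1 rat left out), and Psma6-ps1 (0.03), Psmb3l2 (0), Psmd1-ps1 (0.17) and Psmc3ip (0.17) were not called. Over all 48 genes, 32 were higher (66.7%, against 19.9% of all genes) and 7 lower (14.6%, against 14.7% of all genes) in PH90 than in sham.

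After 70% resection fewer subunits rose, and by less. Of the 30 constitutive subunits, 21 were higher than in sham, where 10.5% of all genes were called higher. None was lower by limma, at an unadjusted p below 0.05 either. Their median difference was 0.31 (range -0.09 to 0.74). In the core particle 12 of 13 were called (median 0.35), and in the regulatory particle 9 of 17 (median 0.27), with 4 of the 6 ATPases and 5 of the 11 non-ATPase subunits. The difference between the particles was not tested. In 11 of the 30, every PH70 rat lay above every sham rat, as in 4.36% of all genes. In a fit without rats 95 and 139, 23 of the 30 were called higher, where 12.7% of all genes were.

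The largest PH70 difference was that of the ATPase Psmc3, which ran from -0.7 to -0.18 (median -0.46) in sham and from -0.56 to 0.56 (median 0.44) in PH70, 0.74 higher (SE 0.15, 1.67-fold, limma adjusted p = 5.2e-04). The overlap came from rat 139 at -0.56, since the other 5 PH70 rats were at 0.22 or above. Psmb4 and Psma5 were each 0.62 higher (SE 0.09 and 0.1), and Psma5 ran from -0.14 to 0.46 in PH70 against -0.61 to -0.15 in sham. Psmc4 and Psmd3 were each 0.55 higher and Psma6 0.51 higher (SE 0.07, limma adjusted p = 1.2e-05). The catalytic Psmb5 and Psmb6 were each 0.35 higher and Psmb7 0.25 higher. The calls of Psmb5 and Psmb7 were lost against unoperated rats, and that of Psmb7 also in a fit of PH70 and sham alone. Psmb3 (-0.04), Psmd1 (-0.09), Psmd11 (-0.06), Psmd7 (0.04), Psmd6 (0.07), Psmd12 (0.09), Psmc2 (0.12), Psmc6 (0.21) and Psmd14 (0.31) were not called.

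No immunoproteasome or PA28 gene was called lower in PH70 (0 at an unadjusted p below 0.05 by limma). Psmb10 ran from 0.28 to 0.53 (median 0.49) in PH70, above every sham rat, and was 1.45-fold higher (log2 difference 0.54, SE 0.11, limma adjusted p = 4.8e-04). Psmb8 (0.32, SE 0.18), Psmb9 (0.28, SE 0.15), Psme1 (-0.14) and Psme2 (0.12) did not pass the test. Psme4 was the only member called lower (-0.33, SE 0.07, limma adjusted p = 6.6e-04), where 8.15% of all genes were. The chaperones Psmg2 (0.26, SE 0.07, limma adjusted p = 0.0048) and Psmg4 (0.42, SE 0.1, limma adjusted p = 0.0025) were higher, as was Psmc3ip (0.35, limma adjusted p = 0.042). The call of Psmg4 was lost against unoperated rats, and that of Psmc3ip in 9 of 12 fits with 1 rat left out and in a fit of PH70 and sham alone.

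PH90 against PH70 compares the means of resected livers alone, while sham and unoperated rats still enter the shared estimate of the spread. Of the 30 constitutive subunits 29 were higher in PH90, where 14.1% of all genes were, with a median of 0.48. In 24 of the 30 every PH90 rat lay above every PH70 rat, as in 6.39% of all genes. The exception to the calls was Psmc3 (0.2, SE 0.15, limma adjusted p = 0.42). The call of Psmb3 was lost without PH90 rat 106, and that of Psma5 in a fit of PH90 and PH70 alone. The regulatory particle's Psmd12 (0.79, SE 0.08), Psmd14 (0.76, SE 0.13) and Psmd13 (0.69, SE 0.1) differed most. All 5 immunoproteasome and PA28 genes were lower, where 10.4% of all genes were. Psmb8 was 3.17-fold lower (log2 difference -1.66, limma adjusted p = 3.7e-08), Psmb9 2.24-fold lower (-1.16, limma adjusted p = 7.9e-07) and Psmb10 1.8-fold lower (-0.85, limma adjusted p = 5.4e-07). With Psme2, 4 of these 5 genes had every PH90 rat below every PH70 rat, as did 4.15% of all genes. The call of Psme1 (-0.47, limma adjusted p = 0.018) was lost without rats 95 and 139, with array weights, in a fit of the 2 groups alone and in 3 of 12 fits with 1 rat left out (PH70 rat 37, PH90 rat 61 or 106), which leaves 4 of the 5. Psmg2 (0.07), Psmg4 (-0.19), Psme4 (-0.04) and Psmf1 (-0.21) were not called between the 2 resections.

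After 30% resection few members changed. Of the 48 genes 3 were higher than in sham (2.2% of all genes were) and 1 was lower (3.34% of all genes were). The alpha subunit Psma5 ran from -0.23 to 0.1 (median 0.03) against -0.61 to -0.15 in sham, 0.37 higher (SE 0.1, limma adjusted p = 0.028). The lid subunit Psmd3 ran from -0.11 to 0.07 against -0.43 to -0.21 in sham, 0.31 higher (SE 0.09, limma adjusted p = 0.044), and was the only 1 of the 30 constitutive subunits with every PH30 rat above every sham rat, as in 1.63% of all genes. Psmb10 was 0.37 higher (SE 0.11, limma adjusted p = 0.043) and Psme4 lower, at -0.23 (SE 0.07, limma adjusted p = 0.039). With 1 rat left out, the call of Psmd3 was lost in 12 of 12 fits, that of Psmb10 in 9 of 12, and those of Psma5 and Psme4 in 7 of 12 each. Against unoperated rats those of Psma5, Psmd3 and Psme4 were lost, and that of Psme4 also in a fit of PH30 and sham alone.

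The constitutive subunits did not move one way in PH30, with a median difference from sham of 0.06 (range -0.34 to 0.46). At an unadjusted p below 0.05, limma gave 6 higher and 4 lower among the 30, where 9.83% and 10.3% of all genes passed. Psmd1, a scaffold of the base, was -0.34 from sham (limma adjusted p = 0.089) and the ATPase Psmc2 was -0.32 (limma adjusted p = 0.071), while Psmc3 was 0.46 (limma adjusted p = 0.062). Rat 95 was the highest PH30 rat for Psmd1 (0.45 against a group median of -0.48), for Psmc2 (0.26 against -0.48) and for Psmd14 (0.62 against -0.3). Without rats 95 and 139, 3 of the 30 were called higher (Psma5, Psmc3 and Psmd3) and 5 lower (Psmc2, Psmd1, Psmd6, Psmd11 and Psmd14), where 4.88% and 6.04% of all genes were.

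PH70 against PH30 depended on the same rats and on the fit. With all rats 10 of the 48 genes were higher in PH70 and none lower, all 10 of them constitutive subunits, where 1.76% of all genes were higher and 0.512% lower. Limma gave 26 of the 30 constitutive subunits higher at an unadjusted p below 0.05, and none lower, where 9.96% and 7.55% of all genes passed. A fit of these 2 groups alone called 0 of the 48 higher after adjustment. Without rats 95 and 139, 26 of the 30 were called higher after adjustment, where 8.87% of all genes were. Rat 95 had the highest PH30 mean over these same genes and rat 139 the lowest PH70 mean. Leaving them out therefore had to widen this difference, and the larger count is no support for it. Of the 48 genes, 27 were called without rat 95, 25 without rat 139, and 1 to 6 without any single other rat. PH90 against PH30 gave 33 of the 48 genes higher and 6 lower, where 18.4% and 13.1% of all genes were, including all 30 constitutive subunits higher and all 5 immunoproteasome and PA28 genes lower. The calls of Psme1 and of the chaperone Psmd9 were lost in a fit of PH90 and PH30 alone. That of Psmd9 was also lost in 7 of 12 fits with 1 rat left out.

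Sham and unoperated livers differed in 1 member. Psmc6, an ATPase of the regulatory particle, ran from 0.02 to 0.12 (median 0.08) in unoperated and from -0.4 to -0.11 (median -0.25) in sham, wholly below as in 1.9% of all genes, a log2 difference of -0.34 (SE 0.08, 1.26-fold lower in sham, limma adjusted p = 0.024). That call was lost without sham rat 45 or 112 or without unoperated rat 148 or 152. No member was called higher and 1 of 48 lower, where 0.308% and 0.429% of all genes were. At an unadjusted p below 0.05 limma gave 0 higher and 8 lower among the 30 constitutive subunits. That count has no share of all genes at the same threshold beside it and is not read as a result. The median difference of the 30 was -0.1, against 0 over all genes. With unoperated rats as the reference, 29 of the 30 constitutive subunits were higher in PH90 (19.3% of all genes were), the exception being Psmc6 (0.16, limma adjusted p = 0.12). In PH70 15 were higher and 1, Psmd11, lower, where 9.31% and 9.17% of all genes were. In PH30 0 were higher and 5 lower (Psmc2, Psmc6, Psmd1, Psmd6 and Psmd11), where 3.48% and 6.37% were. Without rats 95 and 139, 9 of the 30 were lower in PH30 than in unoperated livers, where 8.85% of all genes were, and 2 (Psmb2 and Psmc6) were lower in sham, where 1.1% were.

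Across all 5 groups, limma's moderated F test called 42 of the 48 members and all 30 constitutive subunits, where 42.7% of all genes were called. Psmb11, Psmb3l2, Psma6-ps1, Psmd5, Psmd9 and Psmg1 were not called. Group means lay in the order sham, PH30, PH70, PH90 from low to high in 19 of the 30 constitutive subunits (10 of 13 in the core particle, 9 of 17 in the regulatory particle) and in 11% of all genes. The members also varied together within groups. After group means were removed, the mean pairwise correlation over the 30 arrays was 0.26 within the core particle, 0.35 within the regulatory particle, 0.28 between them and 0 over all genes. Without rats 95 and 139 these fell to 0.08, 0.22 and 0.12. The 3 immunoproteasome genes correlated at 0.75 (0.78 without those rats), and with the constitutive subunits at -0.02 (-0.16). These values describe genes that share arrays and are no test.

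Other genes of the pathway were counted for comparison. Of 22 further partners of the proteasome, 14 were higher (63.6%, against 19.9% of all genes) and 1 lower (14.7% of all genes were) in PH90 than in sham (median 0.42). The proteasome-associated zinc finger gene Zfand2a was 3.07-fold higher (log2 difference 1.62, SE 0.27, limma adjusted p = 1.7e-05). Usp14, a deubiquitinase bound to the regulatory particle, was 2.12-fold higher (1.08), Adrm1, a ubiquitin receptor there, 2.08-fold (1.06), and Ufd1, a cofactor of the unfolding ATPase Vcp, 1.79-fold (0.84). Pomp, the chaperone of core maturation, was higher after each resection, by 0.24 in PH30, 0.44 in PH70 and 0.5 in PH90 (SE 0.06 each, limma adjusted p = 0.018, 9.4e-06 and 5.5e-08). Sem1, a small lid subunit outside the Psm symbols, was higher by 0.75, 0.79 and 0.82 (SE 0.15 each). Against unoperated rats neither was called in PH30 (0.08 and 0.44). Adrm1 was 0.49 higher in PH30, and Vcp was lower there (-0.33, limma adjusted p = 0.0057). In total 3 partners were higher (13.6%, against 2.2% of all genes) and 1 lower (3.34% of all genes were) in PH30. In PH70, 7 were higher (31.8%, against 10.5%) and 2 lower (9.09%, against 8.15%). After leaving out rats 95 and 139 these became 7 higher and 3 lower in PH30, where 4.88% and 6.04% of all genes were, and 11 and 2 in PH70, where 12.7% and 10.9% were. These 3 comparisons share the sham rats. Nfe2l1, the transcription factor that drives proteasome genes when the proteasome is impaired, was 0.31 higher in PH90 (SE 0.09, limma adjusted p = 0.008) and not called in PH30 (0.26) or PH70 (0.22). Without rats 95 and 139 it was called in PH30 (0.31, limma adjusted p = 0.014) and PH70 (0.29, limma adjusted p = 0.0092) as well, and against unoperated rats it was not called in PH90 (0.13, limma adjusted p = 0.31). The related Nfe2l2 was not called in PH90 (-0.29, limma adjusted p = 0.2).

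Of 14 genes of ubiquitin and its activation, 7 were higher (50%, against 19.9% of all genes) and 3 lower (21.4%, against 14.7%) in PH90. The conjugating enzyme Cdc34 was 1.98-fold higher (0.98, SE 0.09) and Ube2h 2.36-fold lower (-1.24, SE 0.12, limma adjusted p = 2.5e-09). In PH70 6 were higher (42.9%, against 10.5% of all genes) and 2 lower (14.3%, against 8.15%), led by Ube2c, the conjugating enzyme of the mitotic anaphase-promoting complex, at 2.66 higher.

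Of 22 genes of antigen presentation and interferon response, 15 were lower in PH90 (68.2%, against 14.7% of all genes) and none higher (0 at an unadjusted p below 0.05 by limma), with a median of -0.49. Irf1, a transcription factor induced by interferon, was 1.77-fold lower (-0.83, SE 0.13, limma adjusted p = 3.9e-06). Nlrc5, the activator of MHC class I genes, was -0.45 from sham (limma adjusted p = 0.001) and Tap1, which carries proteasome peptides to MHC class I, -0.37 (limma adjusted p = 0.0039). The antiviral gene Mx1 and the MHC class II pathway genes RT1-Da and Cd74 were 1.88-fold, 1.87-fold and 1.8-fold lower. Against unoperated rats fewer were called in PH90, with 10 of the 22 lower (45.5%, against 14.5% of all genes) and 0 higher. Irf1, Nlrc5, RT1-Da and Cd74 were still called lower there, while Tap1 and Mx1 were not called. In PH70 2 of the 22 were higher than in sham (9.09%, against 10.5% of all genes) and 3 lower (13.6%, against 8.15%). In PH30 1 was higher (4.55%, against 2.2% of all genes). None was lower there (1 at an unadjusted p below 0.05 by limma), where 3.34% of all genes were called lower. These became 2 higher and 6 lower in PH70 (12.7% and 10.9% of all genes), and 3 higher and 1 lower in PH30 (4.88% and 6.04% of all genes), without rats 95 and 139.

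**Figure D4:**
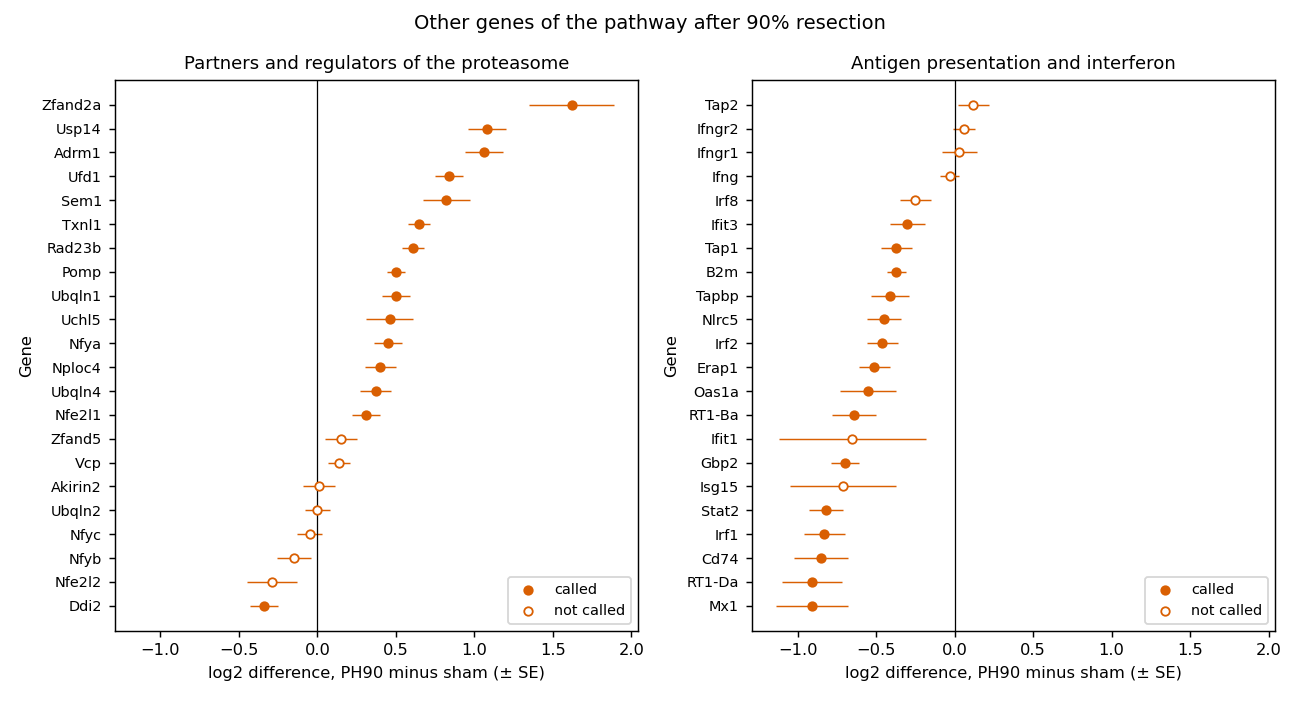
Difference of PH90 from sham on the log2 scale (x axis, bars are 1 SE, 6 rats per group) of the other proteasome partners and of the antigen presentation and interferon genes (y axis, 1 gene per line). Partners reach 1.62 (Zfand2a), and 15 of the 22 antigen presentation and interferon genes are called lower.

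Some markers of liver cell types also differed in PH90, beside the rise of the constitutive subunits and the fall of the immunoproteasome and antigen presentation genes. Against sham, 19.9% of all genes were called higher and 14.7% lower. Of 12 macrophage markers 6 were lower and 1 (Cd163, 0.44) higher than in sham. Their per-rat mean ran from -0.03 to 0.27 in sham and from -0.66 to -0.08 in PH90, without overlap. In unoperated rats the mean ran from -0.3 to 0.05 and overlapped with PH90. Against unoperated rats 4 of the 12 were lower in PH90 and 2 higher, with a median difference of -0.07. There, 14.5% of all genes were lower and 19.3% higher. The fall of the macrophage mean thus depended on the reference. Csf1r, the receptor macrophages need to survive, was 2.1-fold lower than in sham (-1.07, SE 0.14, limma adjusted p = 2.6e-07) and Cd5l, a secreted macrophage protein, 2.01-fold lower (-1.01). Of 19 leukocyte markers 7 were lower (36.8%) and 3 higher (15.8%, near the share of all genes). Among them were Itgal (-0.56) and the neutrophil genes S100a8 (0.56) and S100a9 (0.5). The leukocyte mean ran from -0.05 to 0.08 in sham and from -0.13 to 0.03 in PH90. Of 4 endothelial markers 1 was lower and none higher (0 at an unadjusted p below 0.05 by limma). Of 8 hepatocyte markers 4 were lower (50%) and 1, Tat, higher (12.5%), and Alb, Cps1 and Serpina1 were not called. Their mean ran from 0.13 to 0.39 in sham and from -0.53 to -0.27 in PH90, without overlap. Their median difference was only -0.14, with 3 of the 8 above 0 and a highest of 0.66, so the mean leaned on a few large falls. The cytochrome P450 gene Cyp2c11 was 10.8-fold lower (-3.44) and the urea cycle gene Otc 3.54-fold lower (-1.82). Of 8 stellate and bile duct markers 2 were higher (Des, 1.04, and Epcam, 0.51) and 1 lower (Lrat, -1.88), counts near the shares of all genes. Their mean ran from -0.21 to 0.16 in sham and from -0.06 to 0.15 in PH90. Since levels are lost, it is not known whether any marker was near 0. The part of these cells in the changes of the proteasome genes was not tested.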

How the data were processed

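RNA from 30 livers was hybridised to Affymetrix Rat Gene 2.0 ST arrays. Affymetrix Expression Console was used with RMA, which corrects background, equalises arrays and summarises probes, per the submitters' processing notes. Its version is not given in the sources used here. The authors deposited 1 table of 29489 probe sets on what is taken to be a log2 scale, since RMA gives log2 values and the table states no scale. These deposited values span -6.04 to 5.44, with every probe set's median over the arrays at 0 (within 5e-07). Centring removes levels, so no low-value filter could be applied and all 48 members were tested. Signal over background is unknown, and the number of arrays limits precision.

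Of the probe sets, 18511 had 1 symbol in the platform annotation, 575 several and 10403 none, and those of 1 gene were averaged, giving 18166 genes. The 2 probe sets of Psmb6 were averaged. All 5 groups were fitted together with limma 3.58.1 (R 4.3.3), with 1 mean per group and no covariates (25 residual degrees of freedom), after tests on simulated data. The differences within pairs of catalytic subunits are described with no test. Members and gene lists were chosen with earlier results of these data known. Any member could be named. Of each other list, up to 4 called genes per comparison were eligible by size, plus Nfe2l1, Nfe2l2, Pomp, Irf1, Tap1 and Nlrc5. Alternatives were fits of 2 groups, array weights, array-median centring, a robust fit, single probe sets, unoperated rats as the reference, each rat left out, and both deviating rats left out. The last was added for the pathway and marker lists after seeing the data.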

Additional observations from a re-analysis of the deposited data

Results flagged for a closer look

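Single rats that stood apart from the other 5 of their group by Dixon's criterion were looked for in 130 sets of 6 values, and 15 were found. Chance gives about 1 in 20. Of the 15, 5 were PH30 rat 95 and 4 were PH70 rat 139.

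PH30 rat 95 was the highest of its group for Psma1 (0.393, the others -0.19 to 0.01), Psmb6 (0.186, the others -0.12 to -0.04), Psmb7 (0.167, the others -0.18 to -0.07), Psmd14 (0.624, the others -0.63 to -0.19) and the mean of the regulatory particle (0.15, the others -0.29 to -0.16). PH70 rat 139 was the lowest of its group for Psmb7 (-0.28, the others 0.14 to 0.27), Psmc3 (-0.565, the others 0.22 to 0.56), Psmd13 (-0.209, the others 0.29 to 0.45) and the mean of the core particle (0.0, the others 0.18 to 0.26).

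The other 6 were different rats. Psma1 was 0.087 in sham rat 141 (the others -0.15 to -0.1). Psmb3 was 1.129 in PH90 rat 106 (the others 0.29 to 0.59). Psmb9 was -0.046 in PH70 rat 58 (the others 0.38 to 0.58). Psme2 was 0.661 in PH30 rat 65 (the others -0.16 to 0.11). Psme4 was -0.002 in PH90 rat 111 (the others -0.28 to -0.19). The mean of the regulatory particle was -0.11 in unoperated rat 145 (the others -0.04 to -0.01).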

How the results depend on the processing

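Counts are of the 48 members called by limma, and the cause of each shift was not tested. PH30 against sham had 3 higher, which became 5 in a fit of those 2 groups alone and 1 against unoperated rats. It had 1 lower, which became 7 with array weights, 2 with array-median centring, 0 in a fit of 2 groups alone, 6 against unoperated rats and 8 without rats 95 and 139. PH70 against PH30 had 10 higher, which became 29 with array weights, 0 in a fit of 2 groups alone and 31 without rats 95 and 139. Those rats stood apart in the members themselves, so leaving them out had to widen that difference. PH70 against sham had 1 lower, which became 3 against unoperated rats and 2 without rats 95 and 139. Sham against unoperated had 1 lower, which became 2 with array weights and 2 without rats 95 and 139.

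With each rat left out in turn, PH30 against sham had 0 to 2 higher and 0 to 8 lower (8 without PH30 rat 95). PH70 against PH30 had 1 to 27 higher and 0 lower, PH70 against sham 23 to 27 higher and 1 to 2 lower, and sham against unoperated 0 higher and 0 to 1 lower. PH90 against sham had 31 to 33 higher and 6 to 7 lower, PH90 against PH70 28 to 30 and 4 to 7, and PH90 against PH30 32 to 33 and 6. The F test called 40 to 44. The differences within catalytic pairs, PH90 against sham, ran from -2.21 to -1.98, -1.75 to -1.51 and -1.13 to -0.95. Of 154 calls of a gene in a comparison, 131 were kept in every fit with 1 rat left out, 136 in fits of 2 groups alone, 153 with array weights, 153 with array-median centring, 153 without rats 95 and 139, and 154 with a robust prior or single probe sets. Against unoperated rats 55 of 69 were kept. No call changed direction. No paired analysis was possible because each rat's number is its own and pairs no rats across groups.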
